A study of Mus musculus with 6 samples.

Results

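The 5 genes described here encode enzymes and a receptor of eicosanoid signalling in mouse macrophages. They are Ptgs1, Ptgs2 and Hpgds, which act in prostaglandin synthesis, Hpgd, which acts in prostaglandin inactivation, and Cysltr1, a leukotriene receptor. They are 5 of the 753 genes on the panel and were chosen by name and from their measured differences between the genotypes, with those results known. Their genotype differences are therefore a description, with no p-value, and counts of these genes past a threshold support nothing. Macrophages were grown from the marrow of femur and tibia. The wild-type group (labelled control) and the factor H knockout group (FHKO) had 3 libraries each, with no other treatment. The FHKO mice were 8 to 10 weeks old according to the labels, which do not name the knockout allele or the age of the wild-type mice. Factor H, the missing protein, is a soluble inhibitor of complement. The labels do not say whether the 3 libraries of a genotype came from separate mice, so their spread may be partly technical.

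Eicosanoids are short-lived lipid signals made from arachidonic acid. The cyclooxygenases, of which Ptgs1 encodes the largely constitutive and Ptgs2 the inducible form, turn arachidonic acid into an unstable endoperoxide, and terminal synthases turn that into the single prostaglandins. Hpgds encodes the haematopoietic synthase of prostaglandin D2, which is found in mast cells, megakaryocytes and some macrophages. Hpgd encodes the dehydrogenase that oxidises prostaglandins to products with little activity on their receptors. A separate branch, through lipoxygenase, leads to the leukotrienes, and Cysltr1 encodes a G protein-coupled receptor for the cysteinyl leukotrienes.

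The genes lie on different chromosomes of the GRCm38.p6 assembly, Hpgd at chr8:56294552-56321046, Hpgds at chr6:65117293-65144981, Ptgs1 at chr2:36216742-36258593, Ptgs2 at chr1:150100031-150108234 and Cysltr1 at chrX:106576509-106603679. Of the 5 genes, 4 had a window around an annotated transcript start in the RefSeq table of this assembly, from 250 bases before the start to 50 after it. They are shown to set Hpgd, Hpgds and Ptgs1, whose values were separate between genotypes, beside Ptgs2, whose values were not. All are written along the gene: Hpgd at chr8:56294302-56294601 (plus strand), Hpgds at chr6:65144681-65144980 (minus strand), Ptgs1 at chr2:36230176-36230475 (plus strand) and Ptgs2 at chr1:150099781-150100080 (plus strand). The Ptgs1 and Hpgds windows lie at transcript starts inside the annotated spans of these genes, so bases before the start are not upstream of the whole gene there. Capitals mark matches, on either strand, to TATAAA (the TATA box), GAGGAA (the PU box, bound by the myeloid factor PU.1), CACGTG (an E-box) or CGTCA (a half-site of the cyclic AMP response element).
Hpgd: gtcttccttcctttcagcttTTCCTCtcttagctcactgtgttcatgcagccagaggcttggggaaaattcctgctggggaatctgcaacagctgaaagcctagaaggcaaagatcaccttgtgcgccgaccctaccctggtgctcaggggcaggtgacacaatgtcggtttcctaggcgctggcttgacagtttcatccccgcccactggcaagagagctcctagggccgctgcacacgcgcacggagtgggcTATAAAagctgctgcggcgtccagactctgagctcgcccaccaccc
Hpgds: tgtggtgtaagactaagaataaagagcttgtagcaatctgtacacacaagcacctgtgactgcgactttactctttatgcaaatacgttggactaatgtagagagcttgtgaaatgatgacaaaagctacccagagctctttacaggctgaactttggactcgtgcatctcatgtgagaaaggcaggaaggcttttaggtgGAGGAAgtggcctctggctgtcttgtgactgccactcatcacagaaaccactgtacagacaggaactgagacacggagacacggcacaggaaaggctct
Ptgs1: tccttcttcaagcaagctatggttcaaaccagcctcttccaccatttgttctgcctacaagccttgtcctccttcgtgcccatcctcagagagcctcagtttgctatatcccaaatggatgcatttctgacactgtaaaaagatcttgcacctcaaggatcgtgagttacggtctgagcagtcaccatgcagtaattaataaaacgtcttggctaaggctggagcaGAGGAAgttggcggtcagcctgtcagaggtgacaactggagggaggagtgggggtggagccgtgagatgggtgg
Ptgs2: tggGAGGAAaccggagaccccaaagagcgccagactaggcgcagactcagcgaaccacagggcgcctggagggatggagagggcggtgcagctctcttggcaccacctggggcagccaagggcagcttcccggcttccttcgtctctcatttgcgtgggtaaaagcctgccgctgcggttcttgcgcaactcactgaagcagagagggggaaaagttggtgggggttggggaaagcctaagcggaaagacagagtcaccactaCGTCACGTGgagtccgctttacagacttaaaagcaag

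Each of the 4 windows held 1 PU box. In Hpgds it began at base -49 and in Ptgs1 at base -24, whereas in Hpgd it lay at base -230 on the opposite strand and in Ptgs2 at base -247. This motif was present in 28.3% of the 32851 windows in the table. The Hpgd window alone held a TATA box, from base 5 after the annotated start (13.6% of all windows). The Ptgs2 window alone held the E-box, from base 17, and the half-site, from base 14, and the 2 matches overlap (7.15% and 20.8% of all windows). A match of letters is not evidence of binding.

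Ranks below are by signed log2 difference, FHKO minus control, from the highest. Hpgd ranked 1st of the 490 tested genes, those with values of 20 or more in 3 or more libraries out of 6. Values are normalised counts as deposited, each a count scaled so that a set of reference genes is equal in all libraries. Hpgd was at 186, 373 and 468 in control libraries 1 to 3 and at 721, 1109 and 979 in FHKO libraries 1 to 3. The lowest FHKO value was 1.54 times the highest control value, so the groups did not overlap. The means were 342 ± 144 and 936 ± 197 (SD, n = 3 each), a ratio of 2.73. On the log2(value + 1) scale the difference, FHKO minus control, was 1.53 with a standard error of 0.44. The controls were the more variable group, with a coefficient of variation of 41.9% against 21.1% in FHKO, and control 1 was the low library.

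Among the synthesis genes Hpgds came closest to Hpgd. It was at 225, 291 and 367 in control and at 434, 944 and 559 in FHKO libraries 1 to 3. The groups were separate, but the lowest FHKO value exceeded the highest control value by a ratio of only 1.18, and FHKO library 2 was far above the other FHKO libraries. The means were 295 ± 71.1 and 646 ± 266 (SD, n = 3 each), with a log2 difference of 1.08 and a standard error of 0.39. This ranked 10th of the 490 genes. Without FHKO library 2 the log2 difference of Hpgds was 0.77.

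Ptgs1, the constitutive cyclooxygenase gene, was lower in abundance and steadier. It was at 71.3, 64.7 and 60.0 in control and at 112, 89.1 and 127 in FHKO libraries 1 to 3. Here FHKO library 2, the highest FHKO library for Hpgds, was the lowest, and the groups again did not overlap. The means were 65.3 ± 5.67 and 109 ± 19.04 (SD, n = 3 each), with a log2 difference of 0.72 and a standard error of 0.16, ranking 36th of the 490 genes. The coefficient of variation among controls was 8.69%. That is below the counting error of 9.41% to 14.3% expected of single libraries of either genotype at the counts behind these values (49 to 113). The control counts, 49, 64 and 63, were the lower ones, where that error is larger. The control SD therefore understates the uncertainty of this gene.

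Ptgs2, the inducible cyclooxygenase gene, was close to background in all libraries. It was at 26.2, 9.09 and 27.6 in control and at 20.7, 28.3 and 19.1 in FHKO libraries 1 to 3. The groups overlapped, and the means were 21.0 ± 10.3 and 22.7 ± 4.91 (SD, n = 3 each). Divided by each library's scaling factor, these values correspond to counts of 18, 9 and 29 in control and 15, 34 and 17 in FHKO. The highest of the 8 negative-control probes had counts of 14 to 26, and Ptgs2 exceeded it in 3 of 6 libraries, control 1, control 3 and FHKO 2. The log2 difference was 0.24 with a standard error of 0.52, and it became -0.25 without control library 2, so no direction can be given for Ptgs2 at this depth.

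Cysltr1, the leukotriene receptor gene, ranked 2nd of the 490 tested genes. It was at 56.7, 74.8 and 81.9 in control and at 119, 259 and 147 in FHKO libraries 1 to 3. All FHKO values lay above all control values, by a ratio of at least 1.45, and FHKO library 2 stood highest as it did for Hpgds. The means were 71.1 ± 12.96 and 175 ± 74.0 (SD, n = 3 each), with a log2 difference of 1.22 and a standard error of 0.37. Without FHKO library 2 it was 0.90.

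**Figure D1:**
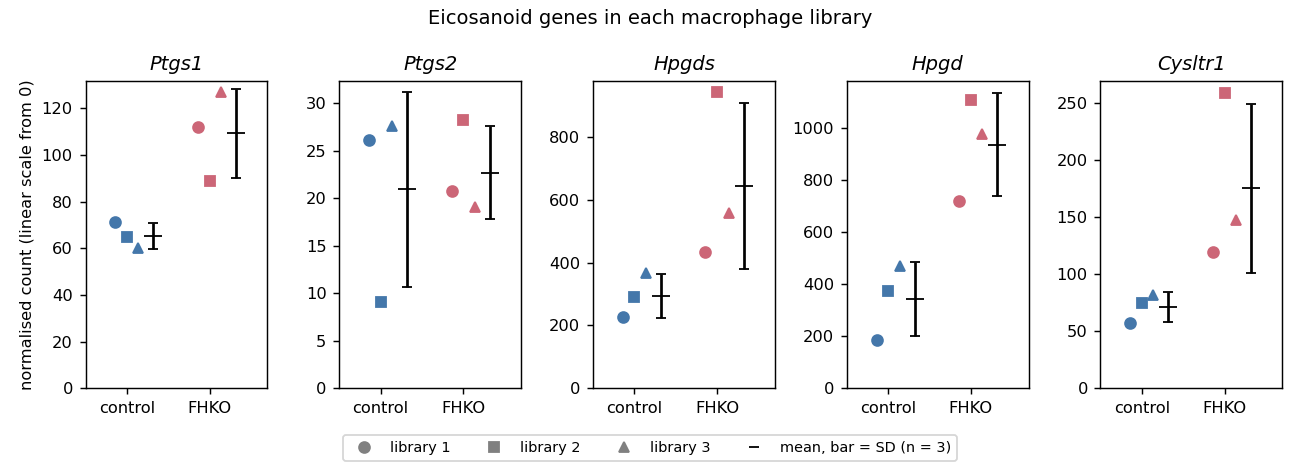
Normalised counts (vertical axis, linear and starting at 0, scaled per gene) of Ptgs1, Ptgs2, Hpgds, Hpgd and Cysltr1 in the 3 control (blue) and 3 FHKO (red) libraries, with symbols for the library number and black bars for the mean ± SD. The FHKO points lie above the control points in Ptgs1, Hpgds, Hpgd and Cysltr1, and the groups overlap in Ptgs2, where control library 2 is lowest at 9.09.

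In all, 4 of the 5 genes had every FHKO value above every control value, against 22.9% of all 490 tested genes. Nothing is read from that count, since the genes were chosen on this contrast. In the fit across all genes (limma, adjusted p under 0.05), 0 of the 5 passed, with 0.204% of tested genes called. Relative to the deposited scaling the panel as a whole stood slightly higher in FHKO, with a median log2 difference of 0.16. Measured from that median, Hpgd stood at 1.37, Cysltr1 at 1.06, Hpgds at 0.92, Ptgs1 at 0.56 and Ptgs2 at 0.08. With library medians set equal in place of reference genes, the log2 differences were 1.23 for Hpgd, 0.93 for Cysltr1, 0.79 for Hpgds and 0.43 for Ptgs1, and Ptgs2 turned to -0.046. With that scaling 2 of the 5 passed in limma, Hpgd and Cysltr1, with 2.86% of tested genes called, and nothing is read from that count either.

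**Figure D2:**
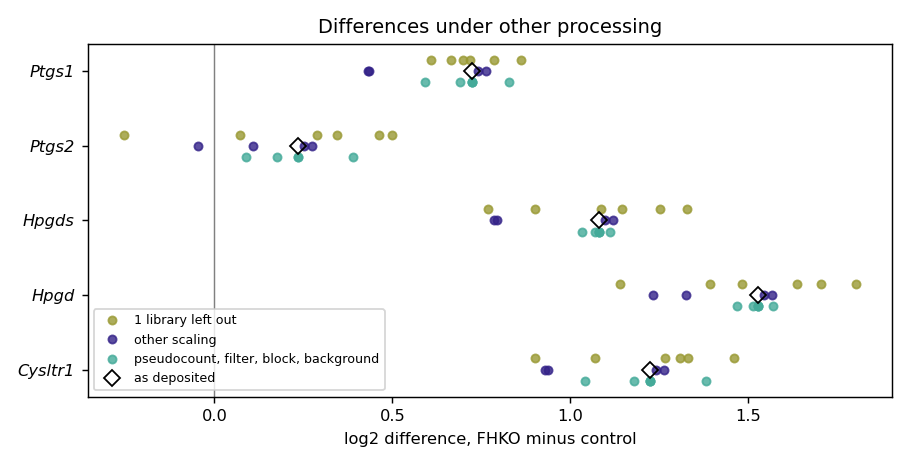
Log2 difference, FHKO minus control (horizontal axis), of each gene with the deposited values (open diamonds), with 1 library left out (olive), under other scalings (dark blue) and with another pseudocount, filter, block or background correction (green). Hpgd, Hpgds, Cysltr1 and Ptgs1 stay above 0 in each setting drawn, the lowest value being 0.43 for Ptgs1, and Ptgs2 lies on both sides of 0. For the genes with separate groups only another scaling or background correction could have turned the direction.

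Ratios between 2 genes of the same library do not depend on the scaling, and they set inactivation against synthesis directly. Only changes of a ratio across libraries are used, since probes of different genes need not be equally efficient. The log2 ratio of Hpgd over Hpgds, taken from the control mean, was -0.42, 0.21 and 0.21 in control and 0.59, 0.09 and 0.66 in FHKO libraries 1 to 3. The groups overlapped, and the mean difference was 0.45 with a standard error of 0.28. For Hpgd over Ptgs1 it was -0.91, 0.23 and 0.67 in control and 0.40, 1.35 and 0.66 in FHKO. These groups also overlapped, with a mean difference of 0.80 and a standard error of 0.55. For Hpgds over Ptgs1 the mean difference was 0.35 with a standard error of 0.53. The balance of the inactivation gene to either synthesis gene was thus not separated between genotypes at the spread of 3 libraries each, although Hpgd had the larger difference of its own.

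The ratio of Hpgds over Cysltr1 was the steadiest. It was -0.05, -0.08 and 0.13 in control and -0.17, -0.17 and -0.11 in FHKO libraries 1 to 3, a whole range of 0.30 on the log2 scale. Its FHKO values all lay below its control values, with a mean difference of -0.15 and a standard error of 0.07. Over the same libraries the ratio of Hpgd over Ptgs1 ranged by 2.25.

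**Figure D3:**
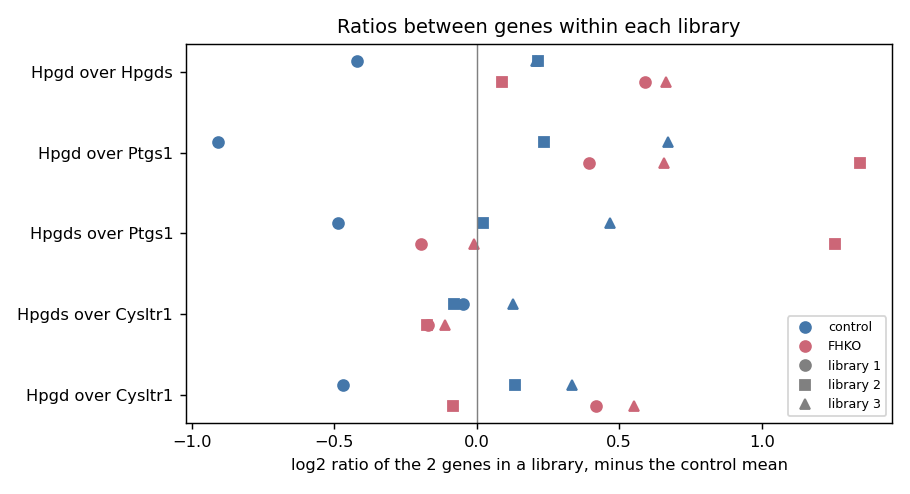
Log2 ratio of 2 genes within each library, minus the mean of the 3 control libraries (horizontal axis), for 5 pairs of genes, with control libraries in blue and FHKO libraries in red. The 6 points of Hpgds over Cysltr1 span 0.30, and control and FHKO points are mixed in the other 4 ratios.

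Hpgds and Cysltr1 also had nearly the same profile within each genotype, a comparison that does not use the difference between genotypes. Likeness was measured as the root mean square distance of log2 profiles over the 6 libraries, after each was centred on the mean of its genotype. Cysltr1 was the nearest of 489 other tested genes to Hpgds, and Hpgds the nearest to Cysltr1, at a distance of 0.07. The next nearest to Hpgds were Twistnb, which encodes a subunit of RNA polymerase I, and the G protein gene Gnai3 (0.08 and 0.09), and next to Cysltr1 came Tnfaip8 and Twistnb (0.12 and 0.13). With profiles centred on the mean of all 6 libraries, Gnai3, Twistnb and Cysltr1 were nearest to Hpgds (0.09, 0.09 and 0.10) and Hpgds, Twistnb and the chemokine receptor gene Ccr2 nearest to Cysltr1 (0.10, 0.14 and 0.18). Both genes therefore shared their profile with genes outside eicosanoid biology.

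Hpgd was further from Hpgds and Cysltr1 within genotypes (0.28 and 0.31) than those were from each other. All 3 genes nevertheless ordered the libraries of each genotype alike, and the distance also depends on the size of the deviations. Within genotypes the genes nearest to Hpgd were Cebpg, a transcription factor gene, Bcl2, which blocks apoptosis, and 2810417H13Rik (Pclaf, a partner of the replication clamp), at 0.11, 0.11 and 0.12. Cebpg and Bcl2 were low, with counts of 9 to 65 and 11 to 61, and each exceeded the highest negative-control probe in 5 of 6 libraries. Hpgds ranked 51st from Hpgd and Cysltr1 80th. The reference gene Hprt ranked 4th at 0.16. Hprt itself was at 116, 191 and 246 in control and 253, 304 and 256 in FHKO libraries 1 to 3, with control 1 lowest as for Hpgd. With profiles centred on all 6 libraries, 2810417H13Rik, Hmgb1 and Mx1 were nearest to Hpgd (0.26, 0.29 and 0.31), and Cysltr1 and Hpgds came 8th and 11th. Mx1 was also low, with counts of 8 to 47.

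Ptgs1 lay far from the other members. Within genotypes its nearest genes were Id1, a repressor of helix-loop-helix factors, the interferon-induced gene Isg15 and the histone deacetylase gene Hdac5 (0.06, 0.08 and 0.08). Centred on all 6 libraries they were Cd34, Id1 and Id3 (0.14, 0.16 and 0.16). Hpgds ranked 460th and Hpgd 464th of 489 from Ptgs1 within genotypes. For Ptgs2 no gene was closer than 0.25 (Mmp8, followed by Runx2 and Fas at 0.29 each), and over all 6 libraries Fas, Runx2 and Egr2 were nearest (0.29, 0.31 and 0.34). The counting error of Ptgs2 was 17.1% to 33.3% of its value in single libraries, and Fas exceeded the highest negative-control probe in 1 library only.

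The summed count of a library moved with 3 of the 5 genes. It was 725234, 996065 and 1083624 in control libraries 1, 2 and 3, and in FHKO it was 717503, 925070 and 1348064 in libraries 1, 3 and 2. Hpgd, Hpgds and Cysltr1 each followed that order in both genotypes, as did 15.9% of the tested genes (78 of 490), and Ptgs1 and Ptgs2 did not. For the 4 genes with separate groups FHKO is higher in any pair of libraries by construction, so pairs of similar depth show only the size of the difference. FHKO library 1 had 3.88 times the Hpgd, 1.93 times the Hpgds, 2.10 times the Cysltr1 and 1.57 times the Ptgs1 value of control library 1. FHKO library 3 had 2.63, 1.92, 1.97 and 1.96 times the values of control library 2, in the same order of genes. The part of depth in the spread within genotypes was not tested.

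**Figure D4:**
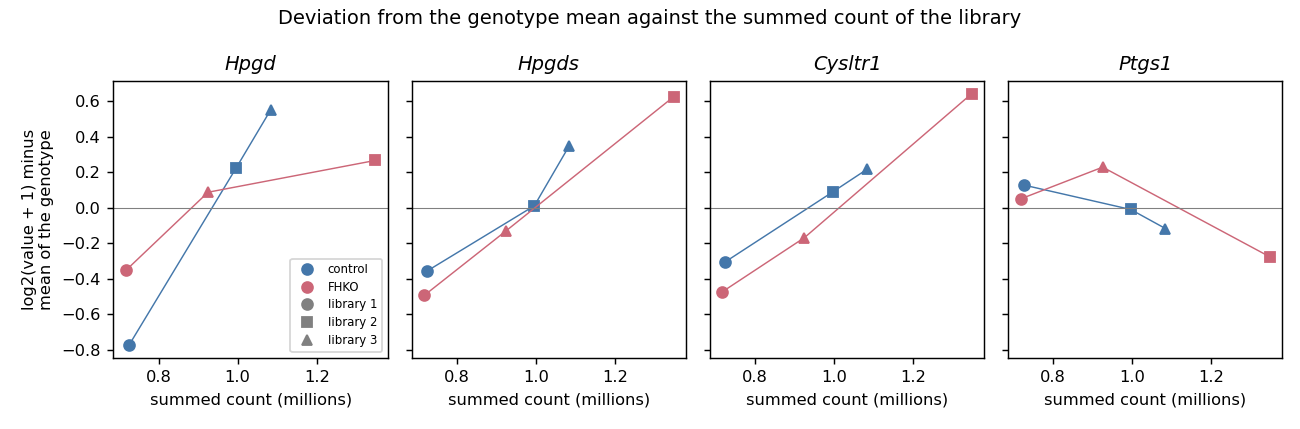
Deviation of log2(value + 1) from the mean of the genotype (vertical axis) against the summed count of the library (horizontal axis) for Hpgd, Hpgds, Cysltr1 and Ptgs1, with control in blue and FHKO in red and lines joining libraries of 1 genotype. Hpgd, Hpgds and Cysltr1 increase from the shallowest to the deepest library in both genotypes, and Ptgs1 does not.

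The other eicosanoid genes on the panel that were abundant had smaller differences, on both sides of 0. Of 72 other eicosanoid genes listed from textbook knowledge 13 were on the panel and 4 passed the filter on low values. In limma 0 of these 4 passed an adjusted p of 0.05, and 0 had an unadjusted p under 0.05, beside 0.204% and 22.4% of all tested genes. Their median log2 difference was -0.03, beside 0.16 over all 490 genes. Alox5ap, which presents arachidonic acid to the lipoxygenase, was at 2938, 3087 and 2865 in control and 3065, 3011 and 3136 in FHKO libraries 1 to 3, and the groups overlapped (log2 difference 0.05, or -0.24 with library medians set equal). Lta4h, the hydrolase that makes leukotriene B4, was at 838, 833 and 856 in control and 810, 794 and 750 in FHKO. Its FHKO values all lay below its control values, with a log2 difference of -0.10 (limma, adjusted p = 0.454).

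Cbr1, a carbonyl reductase that can convert prostaglandin E2, was at 318.5, 303 and 287 in control and 239, 271 and 267 in FHKO libraries 1 to 3. It too was lower in every FHKO library, with a log2 difference of -0.23 and a standard error of 0.07 (limma, adjusted p = 0.241). These were 2 of the 4 tested genes, where 6.33% of all tested genes had every FHKO value below every control value. With library medians set equal Cbr1 and Lta4h had log2 differences of -0.52 and -0.40, both with an unadjusted p under 0.05, as had 26.5% of all tested genes with that scaling, and 0 of the 4 passed after adjustment. Ptger2, a receptor of prostaglandin E2 that raises cyclic AMP, was at 38.3 ± 5.61 and 43.6 ± 4.85 (SD, n = 3 each), with overlapping groups. Its log2 difference of 0.18 (limma, adjusted p = 0.524) became -0.10 with library medians set equal.

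The other 9 genes had values between 5.53 and 27.6 and were not tested. They were the lipocalin-type prostaglandin D synthase gene Ptgds, the prostaglandin D2 receptor genes Ptgdr and Ptgdr2, the lipoxygenase genes Alox5 and Alox15, the leukotriene B4 receptor genes Ltb4r1 and Ltb4r2 and the formyl peptide receptor genes Fpr2 and Fpr3. Of these Fpr2 had separate groups, higher in FHKO, at 7.51 ± 1.64 and 15.3 ± 7.21 (SD, n = 3 each), with a log2 difference of 0.87. It stayed at or below the highest negative-control probe in all libraries. None of the 9 genes exceeded that probe in more than 1 library. Thus the receptors of the product of Hpgds, Ptgdr (9.15 ± 3.07 in control, 8.62 ± 0.94 in FHKO) and Ptgdr2 (11.1 ± 0.83 and 12.2 ± 5.29, SD, n = 3 each), were not detectable above background at this depth.

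**Figure D5:**
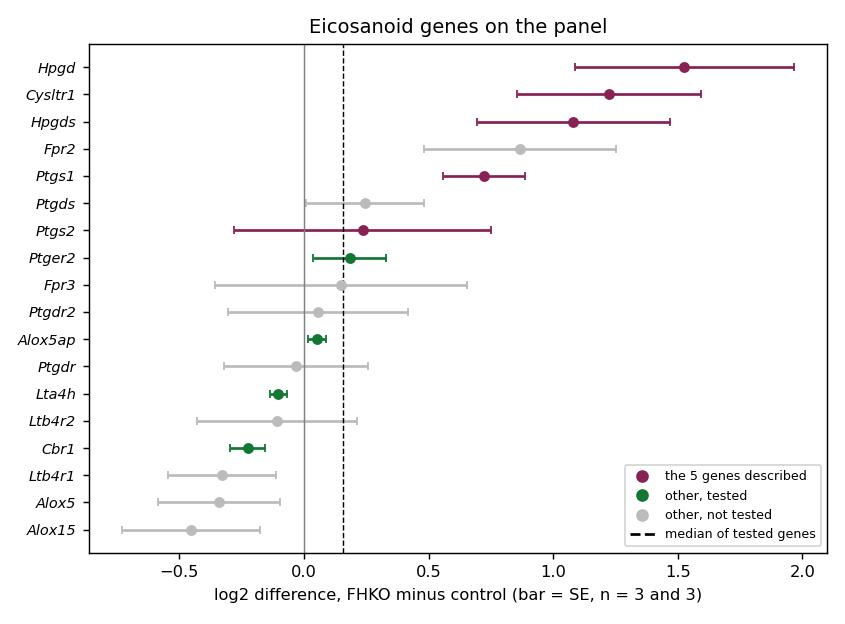
Log2 difference, FHKO minus control (horizontal axis, bars are the standard error from 3 libraries per genotype), of the 18 eicosanoid genes on the panel, with the 5 genes described in purple, the 4 other tested genes in green and untested genes near background in grey. Hpgd, Cysltr1, Hpgds and Ptgs1 lie to the right of the dashed median of all tested genes (0.16), and the 4 other tested genes lie between -0.23 and 0.18. The 5 genes described were chosen on this difference.

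Genes that respond to cyclic AMP or to PPAR gamma, the routes by which prostaglandin E2 and products of prostaglandin D2 act on macrophages, were listed as possible targets. Of 25 listed 18 were on the panel and 15 were tested. In limma 0 passed an adjusted p of 0.05, 4 had an unadjusted p under 0.05 (22.4% of all tested genes had), and the median log2 difference was 0.28 beside 0.16 over all tested genes. The list was not split by the direction in which a gene responds, so its median is not read as a response. The 3 of smallest p were Klf4, Dusp1 and Lpl. Klf4, a transcription factor gene, was at 102, 116 and 152 in control and 167, 242 and 240 in FHKO libraries 1 to 3 (log2 difference 0.81, limma, adjusted p = 0.138, and 0.51 with library medians set equal). Dusp1, a phosphatase gene of MAP kinases, was at 762 ± 9.87 and 976 ± 94.1 (SD, n = 3 each), also with separate groups (log2 difference 0.35, limma, adjusted p = 0.141, and 0.06 with library medians set equal). Lpl, a lipase gene, had overlapping groups and a log2 difference of 0.65 (limma, adjusted p = 0.152, and 0.36 with library medians set equal). Pparg itself had a log2 difference of 0.02, with overlapping groups, which became -0.27 with library medians set equal.

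The cultures carried the macrophage markers, and markers of other cells ranged from background to well above it. In bulk RNA a change in the share of a cell type and a change in RNA per cell cannot be told apart. All 7 macrophage markers on the panel were tested, and their summed value was 47904 to 51350 in control and 50272 to 52619 in FHKO. Of the 7, 6 had a log2 difference above 0. Adgre1 and Csf1r, 2 of the 7, had separate groups, both higher in FHKO, beside 22.9% of all tested genes. Adgre1 was at 11645 to 12445 in control and 12969 to 13172 in FHKO. Its log2 difference of 0.11 became -0.18 with library medians set equal. Csf1r was at 5676 to 6044 in control and 6668 to 7393 in FHKO. The log2 difference of Csf1r, 0.26 (limma, adjusted p = 0.141), became -0.03 with library medians set equal. Cd68 was at 20835 to 24579 in control and 20999 to 21768 in FHKO, with overlapping groups and a log2 difference of -0.07. Mast cells, a known source of Hpgds, had 7 markers on the panel with values of 4.76 to 23.8 and summed values of 78.8 to 93.1 in control and 83.1 to 97.4 in FHKO. None of Kit, Fcer1a, Ms4a2, Tpsb2, Gata2 and Cpa3 exceeded the highest negative-control probe in any library. Cpa3 had separate groups at 5.21 ± 0.55 and 11.2 ± 2.44 (SD, n = 3 each). Groups overlapped in Kit, Fcer1a, Ms4a2 and Tpsb2, with log2 differences of -0.07, -0.35, -0.15 and -0.20, and in Gata2, with 0.29. Hdc, the 1 mast cell marker that passed the filter, exceeded the highest negative-control probe in 2 libraries. It was at 16.2 to 23.3 in control and 19.35 to 23.3 in FHKO, with overlapping groups. Of the megakaryocyte and platelet markers Pf4 alone was on the panel, at 426 to 464 in control and 402 to 584 in FHKO.

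Eosinophils, which are known to express Cysltr1, had 5 markers on the panel with summed values of 206 to 294 in control and 278 to 328 in FHKO. Siglecf was at 141, 110 and 169 in control and 174, 212 and 172 in FHKO libraries 1 to 3. Its groups were separate by a ratio of only 1.01 (22.9% of all tested genes had every FHKO value above every control value). The log2 difference of Siglecf, 0.42, became 0.13 with library medians set equal. Ccr3 was at 48.0 to 100.9 in control and 73.2 to 88.2 in FHKO, with overlapping groups. Siglecf and Ccr3 exceeded all negative-control probes in 6 of 6 libraries. The granule gene Epx and the receptor gene Il5ra stayed at or below the highest negative-control probe in all libraries, and Prg2 exceeded it in 1. Il5ra had overlapping groups and a log2 difference of -0.66. The 8 neutrophil markers summed to 299.6 to 343 in control and 283 to 375 in FHKO. Among them Ly6g, Cxcr2 and Camp exceeded the highest negative-control probe in no library, Mpo and Elane in 1 each and S100a9 in 3. S100a8 and Csf3r exceeded it in 6 of 6, with overlapping groups and log2 differences of -0.29 and 0.34. The 5 dendritic cell markers, nearly all of it Itgax, summed to 712 to 1002 in control and 672 to 774 in FHKO. The single markers of B cells and NK cells and the 3 of stromal or endothelial cells reached at most 20.7, 10.2 and 21.2, and no T cell marker was on the panel. The part of other cells in the differences of Hpgds and Cysltr1 was not tested.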

How the data were processed

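The deposited table gives a normalised signal per gene and library, per the values themselves, for 753 genes, 8 negative-control rows and 6 positive-control rows. The sources used here do not give platform or software. The authors' scaling was read from the values: the 6 libraries share 1 geometric mean over 16 of 20 reference genes (SD 6.82e-06 on the log2 scale). Gene values below 2000 steps are whole multiples of 1 step per library in 99.9% of cases within 0.0051, and value divided by step was taken as the count, for counting error only. The automatic test of whole reads passed in 4 of 6 columns, so no count model was run.

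Genes at 20 or more in at least 3 of 6 libraries (490) were fitted on log2(value + 1) in limma 3.58.1 (R 4.3.3), where eBayes used an intensity trend. The tests were two-sided, with Benjamini-Hochberg adjustment over all tested genes at 0.05. The log2(value + 1) scale understates the change of low genes. Standard errors in the text come from the 3 libraries per genotype. The 5 genes and all lists were chosen with earlier results of these data known. Always named were the 5 genes, the other eicosanoid genes on the panel, the 3 genes of nearest profile to each and the 3 response genes of smallest p. Alternatives are given in the closing section, and the subtraction of negative controls was chosen after seeing the data. The fit was tested on simulated data with log2 differences larger than any measured here, which does not show how it performs at the measured sizes. Figures used matplotlib 3.10.9.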

Additional observations from a re-analysis of the deposited data

How the results depend on the processing

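The log2 differences of Hpgd, Hpgds, Ptgs1 and Cysltr1 kept their direction in every alternative run. Since their groups were separate, only another scaling or the subtraction of negative controls could have turned it. The other runs show only the size of the difference. Leaving out 1 library at a time gave 1.14 to 1.80 for Hpgd, 0.77 to 1.33 for Hpgds, 0.61 to 0.86 for Ptgs1, 0.90 to 1.46 for Cysltr1 and -0.25 to 0.50 for Ptgs2, whose direction turned without control library 2. With library medians set equal Ptgs1 moved to 0.43 and Ptgs2 to -0.046, and after quantile normalisation Ptgs1 had 0.44. With library medians set equal the median of all tested genes moved from 0.16 to -0.13. Ptgs2 was not tested with the filter at 50. The count of genes called by limma was 1 as deposited (Il1rn, named after its result was seen, 110 genes at an unadjusted p under 0.05), 0 to 3 with 1 library left out (3 without FHKO library 2), 14 with library medians set equal and 4 at an adjusted p under 0.1. With the replicate block it was 0, and the log2 difference of Hpgd stayed at 1.53. Libraries of the same number did not deviate together (correlation of deviations over genes 0.26, -0.03 and -0.29 for numbers 1 to 3), so the numbers were not taken as pairs. The count of other eicosanoid genes called was 0 in every alternative run. edgeR and DESeq2 on whole counts were planned and not run. Depth limits Ptgs2 most, with counts of 9 to 34 per library.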
